A study of Mus musculus with 12 samples.

Results

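The genes described here are 32 genes of platelets and of the megakaryocytes that make them, out of 27998 genes counted in c-Kit+ mouse bone marrow, the fraction that holds blood stem and progenitor cells. The members were chosen by name: 11 adhesion receptors, 9 granule and secreted proteins, 9 receptors, enzymes and adaptors of signalling, and 3 genes of the cytoskeleton and vesicles. All 32 were present in the tables. They were followed over all cells of each library, within cells with at least 2 Pf4 transcripts, and within other cells gated by marker genes.

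The study asked how an activated NRas allele and the loss of Ezh2, alone and together, alter marrow cells while leukemia develops. The 4 genotypes compared were on a C57BL/6 background, and mice of every genotype received pIpC, the double-stranded RNA that switches on Mx1-Cre in blood cells and in other interferon-responsive cells. WT mice lacked Mx1-Cre. E2-KO mice carried Mx1-Cre and Ezh2 f/f, G12D mice carried Mx1-Cre and LSL-NRas G12D+/-, and G12D/E2-KO mice carried Mx1-Cre with both alleles. The recombinase therefore cannot be told apart from the alleles in a comparison with WT. Single-cell RNA libraries were made at 3 times after pIpC: T1 stands for 2 weeks, T2 for 2 months and T3 for 4 months. Each genotype had 1 library at each of these times, 3 in all. The time points stand in for replicates, so that the spread within a genotype holds both time and mouse.

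The 12 libraries held 32701 cells after 2896 cells that stood in the T1 tables of both NRas genotypes were counted once, with 12.6 to 23.6 M UMIs (M, 1000000) per library and medians of 3780.5 to 6975.5 UMIs per cell. The shared cells were kept under G12D/E2-KO, where they were 95.1% of the T1 library, and taken out of G12D, where they were 51.3% of it. The labels do not say which library they came from, and G12D/E2-KO T1 values rest on that choice. Ezh2, the deleted gene, stood at 20.7 CPM in G12D/E2-KO T1, made up nearly wholly of these cells, whereas G12D T1 without them had 86.3 CPM. The shared cells thus had the Ezh2 level of the libraries with the deletion. With both T1 libraries left out of the fit over all cells, the members named further on as raised in G12D/E2-KO passed. Serpine2 was at a log2 of 1.50 (edgeR adjusted p 0.0238) and Plek at 0.99 (adjusted p 0.0360). That setting also takes out the G12D/E2-KO library lowest for both members, so it cannot show where the shared cells belong. With the tables as deposited Serpine2 passed and Plek did not, where 3.42% of all genes passed. A UMI marks 1 captured RNA molecule, and levels are given as CPM, the UMIs of a gene per 1000000 UMIs of the same library or gate. Ezh2 stood at 20.7 to 34.6 CPM in the 6 libraries with the deletion and at 81.7 to 133 CPM in the other 6. The G12D/E2-KO T3 library stood apart: 25.7% of the 19993 genes with a UMI had their highest level there, against 3.69 to 11.7% in the other 11 libraries. The labels give no sex, but Xist, the RNA of the inactive X chromosome, reached 1296 to 1357 CPM in WT T3, E2-KO T3 and G12D T3 and at most 0.608 CPM in the other 9 libraries, G12D/E2-KO T3 included. At T3 the G12D/E2-KO library thus differed in sex from the 3 it was compared with, and the part of sex in the results was not tested.

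Megakaryocytes grow out of stem and progenitor cells, copy their genome repeatedly without dividing and shed platelets. Platelets stick to exposed vessel wall through the glycoprotein Ib-IX-V complex, which binds von Willebrand factor, and through collagen receptors, and they stick to each other through the integrin made of Itga2b and Itgb3. Their alpha granules release chemokines, clotting proteins and von Willebrand factor after receptors for thrombin and ADP have been triggered. The transcription factors GATA1 and those of the ETS family drive many of these genes. Stem cells and early progenitors also hold transcripts of some of them, Itga2b and Vwf among them.

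Pf4 transcripts defined the gated cells called Pf4 cells below. Ppbp lies next to Pf4 and owed its highest levels to very few cells. Itga2b was also found in stem and progenitor cells, and Serpine2 changed in granulocytic cells. Promoters of these 4 members are shown because they stand for the patterns below. Each runs from 250 bases before to 50 bases after the RefSeq start, 5′ to 3′ on the gene's strand, in build GRCm38.p6, and capitals mark matches on either strand to the motifs searched. The binding motif of GATA factors was searched as AGATAA. The same motif was also searched with T as its first letter, TGATAA. For ETS factors the searched forms were AGGAAG and, with C as its first letter, CGGAAG.

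Pf4, chr5:90772185-90772484, plus strand: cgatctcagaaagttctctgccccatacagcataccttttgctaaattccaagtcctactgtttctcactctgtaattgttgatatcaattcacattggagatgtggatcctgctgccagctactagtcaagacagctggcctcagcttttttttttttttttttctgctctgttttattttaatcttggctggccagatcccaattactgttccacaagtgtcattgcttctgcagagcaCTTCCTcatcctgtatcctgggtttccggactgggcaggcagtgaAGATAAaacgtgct

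Ppbp, chr5:90768268-90768567, plus strand: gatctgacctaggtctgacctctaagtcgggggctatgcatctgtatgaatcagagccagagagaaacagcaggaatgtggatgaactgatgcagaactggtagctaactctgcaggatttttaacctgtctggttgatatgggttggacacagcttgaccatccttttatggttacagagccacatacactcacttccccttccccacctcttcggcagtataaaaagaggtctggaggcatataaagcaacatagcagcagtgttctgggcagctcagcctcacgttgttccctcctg

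Itga2b, chr11:102469834-102470133, minus strand: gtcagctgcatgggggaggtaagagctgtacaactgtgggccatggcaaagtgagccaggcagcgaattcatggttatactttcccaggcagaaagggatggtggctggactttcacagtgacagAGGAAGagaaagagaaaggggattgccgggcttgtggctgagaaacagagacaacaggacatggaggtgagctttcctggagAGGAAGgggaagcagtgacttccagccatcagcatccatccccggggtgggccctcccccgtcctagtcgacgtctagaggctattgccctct

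Serpine2, chr1:79858616-79858915, minus strand: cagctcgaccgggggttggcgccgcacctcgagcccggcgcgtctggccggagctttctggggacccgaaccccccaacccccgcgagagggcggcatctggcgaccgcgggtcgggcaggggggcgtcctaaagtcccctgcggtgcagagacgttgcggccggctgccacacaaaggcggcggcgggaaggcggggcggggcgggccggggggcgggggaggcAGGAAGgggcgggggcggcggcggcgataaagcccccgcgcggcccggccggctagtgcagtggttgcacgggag

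The table held promoters of 27 of the 32 members; those of Itgb3, Vwf, Thbs1, Rgs18 and Rab27b were not in it. A GATA match was present in 8 of these 27 promoters (29.6%) and in 18.6% of all 32851 promoters of the table. An ETS match was present in 15 of 27 (55.6%) and in 46.5% of all promoters, and both were present in 4 of 27 (14.8%) and in 7.7%. Pf4 held 1 match of each kind and Itga2b held 2 ETS matches. Serpine2 held 1 ETS match, and Ppbp held neither. A match is a string of letters and not a bound site.

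In WT marrow many members were concentrated in few cells. Cells with at least 2 UMIs of Pf4, which encodes the platelet chemokine platelet factor 4, made up 2.00 to 3.27% of the WT libraries and held 96.3% of all WT Pf4 UMIs. They also held 95.7% of the UMIs of Gp6 (a collagen receptor), 93.2% of Sdpr (a caveolar protein, also called Cavin2), 90.9% of F2rl2 (protease-activated receptor 3), 90.1% of Timp3 (a metalloproteinase inhibitor), 89.7% of Ppbp (the chemokine pro-platelet basic protein) and 86.3% of Gp1bb (a subunit of the von Willebrand factor receptor). At the other end the same cells held 34.8% of the UMIs of Serpine2 (protease nexin 1), 15.4% of Rgs18 (a regulator of G protein signalling), 12.8% of P2ry1 (an ADP receptor), 11.7% of Cd9 (a tetraspanin) and 7.6% of F5 (coagulation factor V). The members filled the range between, with 10 of the 31 detected in WT above 80%, 8 from 50 to 80% and 13 below: Itga2b stood at 66.9%, Vwf at 63.5%, Plek at 46.7% and Nrgn at 44.6%. Pf4 chose these cells, so its own share is no result, although it is 1 of the 10 above 80%. Others of the 10 rested on few WT UMIs: 7 for Itga2, 23 for Gp6 and 33 for Alox12. Thbs1, at 72.0%, had 403 of its 493 WT UMIs at T1.

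The gate was checked against other markers of the lineage. Of the WT cells with at least 2 Pf4 UMIs, 58.1 to 68.1% held a UMI of Itga2b (integrin alpha IIb), 40.9 to 42.6% one of Gp9 (the glycoprotein IX subunit of the von Willebrand factor receptor) and 40.4 to 44.1% one of Vwf (von Willebrand factor). Tubb1, the beta-1 tubulin of mature megakaryocytes and platelets, had 0 UMIs in the 3 WT libraries and 3 in all 12. This marker of the late stages was thus at or close to 0, also in cells rich in other late genes described further on, so it could not tell stages apart. The gated cells are called Pf4 cells here, with no stage given. They were a mixture. WT cells with at least 2 but fewer than 20 Pf4 UMIs averaged 68.7 CPM of Itga2b, 42.6 CPM of Gp9 and 18.6 CPM of Vwf. Those with 20 or more averaged 374, 110 and 219 CPM. The part of this mixture in the differences between libraries was not tested.

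The other gates left out cells with 2 or more Pf4 UMIs, so a cell in them held at most 1, and their low Pf4 level follows from that rule and is no result. In WT the cells gated as stem cells and multipotent progenitors (HSC/MPP) averaged 19.7 ± 4.16 CPM of Pf4 (SD, n = 3), the highest of these gates. The gated late granulocytes averaged 12.3 ± 2.58 CPM, the granulocyte-macrophage cells 12.3 CPM, the early erythroid cells 10.0 CPM, the late erythroid cells 7.83 CPM and the B lymphoid cells 8.17 CPM. Of the cells gated as late granulocytes whatever their Pf4 count, which should lack the gene, 5.94 to 7.99% held at least 1 Pf4 UMI in WT and 1.25 to 7.31% in the other libraries, at median depths of 3396 to 5727 UMIs. With a minimum of 2 Pf4 UMIs the share fell to between 0 and 0.645%. These late granulocytes numbered 776 in WT T1 and 450 in E2-KO T1, of which 3 and 0 held 2 or more Pf4 UMIs. The late granulocyte gate held 692 and 318 cells in these libraries, so it also left out other cells. A level or share at or below that of late granulocytes is treated here as background. The part of free RNA in these low levels was not tested.

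Several members had a second home in WT marrow. Cd9 averaged 480 ± 39.9 CPM in late granulocytes (n = 3), close to the 456 to 535 CPM of the Pf4 cells. F5 averaged 27.6 ± 2.60 CPM in late granulocytes. Gp9 reached 25.6 ± 3.97 CPM in late erythroid cells. Mmrn1 (multimerin 1, which binds factor V) was found in B lymphoid cells at 27.8, 33.1 and 0 CPM at T1, T2 and T3 (33, 23 and 0 UMIs). At T3 this gate held few UMIs, since 4 of Cd9 made 45.1 CPM, so the 0 shows no loss. In HSC/MPP cells, Nrgn (neurogranin, a calmodulin-binding protein) averaged 215 ± 16.6 CPM, Rgs18 202 ± 27.2 CPM, Lat (an adaptor of receptor signalling) 56.0 ± 6.34 CPM and Plek (pleckstrin, the major protein kinase C substrate of platelets) 54.8 ± 6.07 CPM. These members were thus shared in WT with stem cells, granulocytes, B lymphoid cells or red cell precursors.

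**Figure D1:**
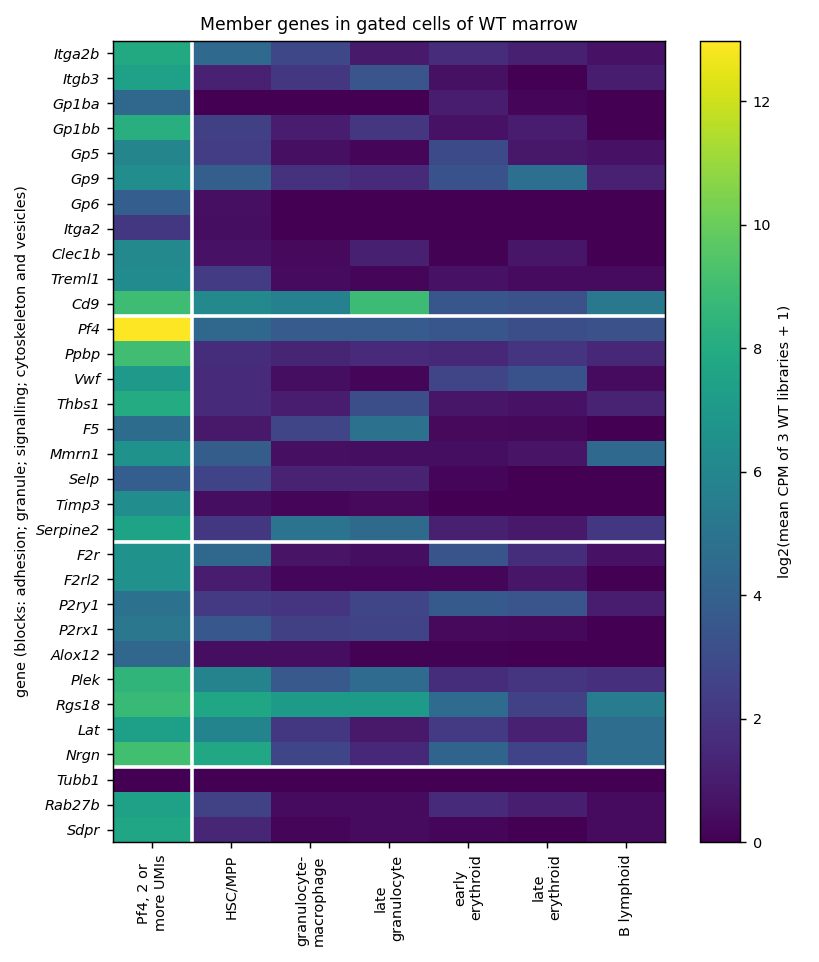
Level of each member in gated cells of WT marrow, as log2 of the mean CPM of 3 WT libraries plus 1 (colour scale), with genes in rows by role and gates in columns. Pf4 is bright in the Pf4 column that it defines and at 7.83 to 19.7 CPM in the other gates, from which cells with 2 or more Pf4 UMIs were left out, whereas Cd9, Rgs18, Plek and Nrgn are also bright outside it.

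The share of Pf4 cells differed most between the libraries of the double mutant. It was 2.00, 3.27 and 3.26% of the cells in WT at T1, T2 and T3 (47, 93 and 78 cells). In E2-KO it was 2.25, 1.77 and 1.39% (55, 52 and 36 cells), and in G12D 1.05, 1.66 and 1.18% (29, 40 and 30 cells). In G12D/E2-KO it was 0.953, 2.55 and 8.37% (29, 96 and 219 cells), with an exact 95% binomial interval at T3 of 7.34 to 9.50%, which covers counting error only.

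All 3 G12D libraries lay below the WT library of the same time point, at ratios of 0.527, 0.507 and 0.360. E2-KO lay above WT at T1 and below at T2 and T3, at ratios of 1.12, 0.540 and 0.426. G12D/E2-KO lay below G12D at T1 and above it later, at ratios of 0.904, 1.54 and 7.12. In exact two-sided sign-flip permutation tests over time-matched pairs, the loss of Ezh2 gave a mean log2 ratio of 0.23 (3 of 6 pairs higher, p = 0.8125) and G12D one of -0.25 (2 of 6 higher, p = 0.71875), where the smallest p that 6 pairs allow is 0.03125. The interaction, the double mutant change minus both single changes, was -0.32, 1.51 and 4.06 at T1, T2 and T3, with a mean of 1.75 (exact permutation test over 3 time points, p = 0.5, smallest possible 0.25). Those effects pool pairs of opposite sign. Taken alone, G12D against WT gave a mean log2 ratio of -1.13 ± 0.30 (SD, 3 of 3 time points lower), a difference larger than the spread between time points. Its p was 0.25 in the exact permutation test, the smallest that 3 pairs allow, so the design could not bring it to the threshold. E2-KO against WT gave -0.65 ± 0.73, and G12D/E2-KO against WT gave -0.02 ± 1.25, both within their spread. The excess in G12D/E2-KO rested on T3.

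**Figure D2:**
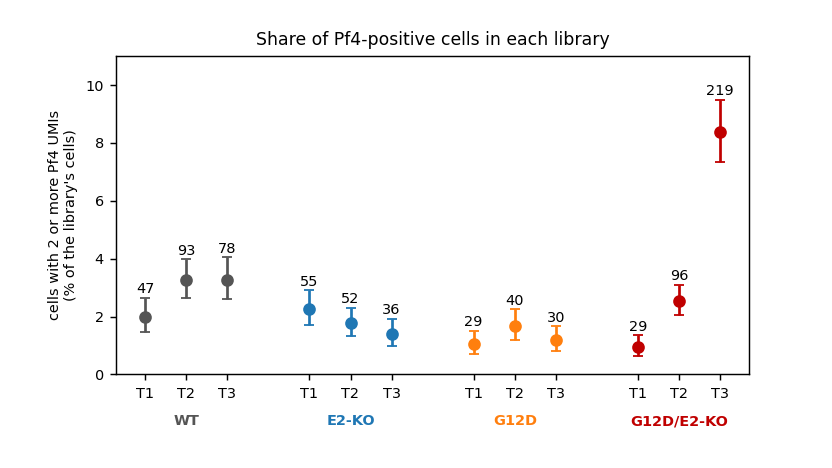
Percent of cells with at least 2 Pf4 UMIs in each of the 12 libraries, with exact 95% binomial intervals (bars) and the number of such cells above each point. The G12D/E2-KO T3 library, at 8.37%, lies above the other 11, which run from 0.953 to 3.27%.

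Over all cells, members were lower in both single mutants by size, without passing the test. Counts were summed per library and fitted across all genes with genotype and time point as factors, and differences are log2 values with their SE. Of the 30 members tested against WT, 27 had a negative and 3 a positive log2 difference in E2-KO, and 26 were negative and 4 positive in G12D. The median log2 difference was -0.67 in E2-KO and -0.96 in G12D, whereas the median of all 12848 genes tested was 0.00 and -0.01. No member passed the threshold (edgeR quasi-likelihood test, Benjamini-Hochberg adjusted p of 0.05) in either comparison, in which 1.59% and 0.109% of all genes passed. An unadjusted p under 0.05 was found for 11 members in E2-KO, 1 higher and 10 lower, and for 13 in G12D, all lower. Over all genes 8.85% were higher and 7.23% lower at that level in E2-KO, and 5.67% were lower in G12D.

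DESeq2 called 5 members lower in E2-KO (Cd9, Clec1b, F2rl2, Pf4 and Sdpr) where it called 2.95% of genes, and 4 lower in G12D (Pf4, Rab27b, Sdpr and Vwf) where it called 1.04%. Members lower in both comparisons share the same 3 WT libraries. In sums over all cells, fewer cells of a type and less RNA per cell cannot be told apart.

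In the double mutant most members were higher than in WT by size, at T2 and T3 but not at T1. Against WT of the same time point, 25 members were lower and 7 higher at T1, 25 higher and 6 lower at T2, and 30 higher and 2 lower at T3, whereas 41.8, 55.8 and 66.9% of all genes were higher at those times. For 28 of the 32 members G12D/E2-KO T3 was the highest of the 12 libraries; the exceptions were F5, Mmrn1, Cd9 and P2rx1 (an ATP-gated channel). Of the 30 members tested, 2 passed the threshold in G12D/E2-KO against WT, Serpine2 and Plek, both higher, where 5.69% of all genes passed. As a count, 2 of 30 is near that share, so it is no result about the members as a group. At an unadjusted p under 0.05, 8 were higher and 0 lower, against 14.2% and 12.0% of all genes. DESeq2 called 3 members there, Plek, Selp and Serpine2, where it called 9.63% of all genes.

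The interaction had a median log2 of 1.98 over members (all genes 0.00), and 29 of 30 were positive. None passed in edgeR, where 0.0934% of all genes did. An unadjusted p under 0.05 was found for 25 members, all positive, against 2.14% of genes positive at that level, and DESeq2 called 12, where it called 0.285% of all genes. The lowest adjusted p values of a member in edgeR were 0.0663 for Plek and Vwf. The members are not independent of each other, since the same few cells carry most of them, and no p is given for them as a group.

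**Figure D3:**
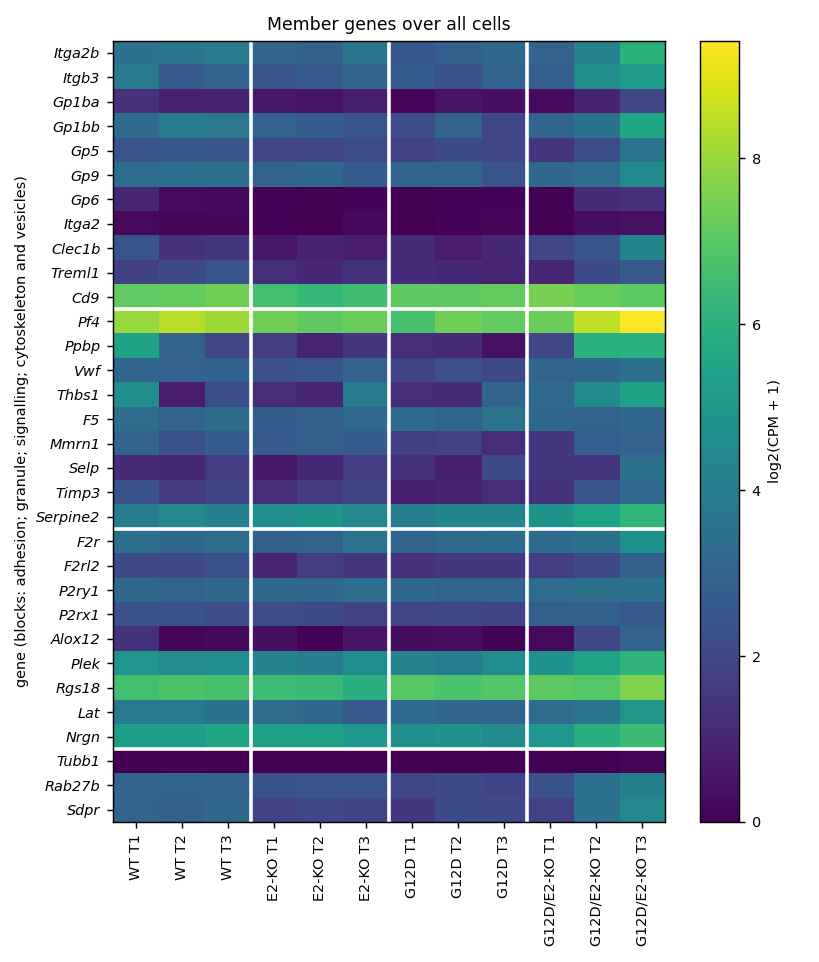
Level of each member over all cells of each library, as log2 of CPM plus 1 (colour scale), with genes in rows by role and libraries in columns by genotype and time point. The G12D/E2-KO T3 column is the brightest for 28 of the 32 members, and Tubb1 is at or near 0 throughout.

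Among the adhesion receptors, all 10 tested were lower in both single mutants by size, with medians of -0.84 in E2-KO and -1.13 in G12D. Itga2b stood at 10.5, 12.1 and 13.7 CPM in WT at T1, T2 and T3, at 7.69, 6.58 and 11.4 in E2-KO, at 4.82, 6.32 and 8.13 in G12D, and at 6.73, 17.3 and 65.1 in G12D/E2-KO. The 3 G12D values lay under all WT values, and the double mutant ran from below WT at T1 to well above it at T3. Its log2 difference in G12D/E2-KO was 0.81 (SE 0.42, edgeR adjusted p 0.256). It was 0.12 without G12D/E2-KO T3 (adjusted p 0.799), and it passed at 1.30 without G12D/E2-KO T1 (adjusted p 0.0348).

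Gp9 stood at 9.45, 9.90 and 10.0 CPM in WT, at 6.95, 7.97 and 5.30 in E2-KO, at 7.35, 7.46 and 4.45 in G12D, and at 7.76, 9.32 and 21.4 in G12D/E2-KO. Both single mutants lay below WT without overlap, and the double mutant did so at T1 and T2 only. No Gp9 difference passed the test, with log2 values of -0.55 (SE 0.31) in E2-KO, -0.56 (SE 0.31) in G12D and 0.26 (SE 0.31) in G12D/E2-KO. Clec1b, the podoplanin receptor CLEC-2, was the adhesion receptor with the largest double mutant difference, 1.43 (SE 0.57, edgeR adjusted p 0.155), from 1.52 to 4.46 CPM in WT and from 2.87 to 18.1 CPM in G12D/E2-KO. Of its 64 UMIs in G12D/E2-KO T1, 14 lay in cells gated as promonocytes by F13a1, Irf8 and other genes. Cd9 over all cells ran against the group in the double mutant at T1 and T3 but not at T2, at 138, 142 and 166 CPM in WT and 180, 150 and 132 CPM in G12D/E2-KO. Like the group it was lower in E2-KO, where it was lowest, at 95.4, 77.8 and 91.4 CPM (log2 -0.78, SE 0.18, edgeR adjusted p 0.057). Itga2 (the alpha-2 subunit of a collagen receptor) was too rare to be tested, at no more than 0.324 CPM in any library.

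Among the granule and secreted proteins, Pf4 stood at 251, 337 and 267 CPM in WT, or 285 ± 46.0 (SD, n = 3). It stood at 167, 133 and 156 CPM in E2-KO (152 ± 17.1), at 102, 164 and 140 CPM in G12D (135 ± 31.1), and at 155, 365 and 682 CPM in G12D/E2-KO (401 ± 265). Every single mutant library lay below every WT library. The log2 differences were -0.90 (SE 0.31, edgeR adjusted p 0.205) and -1.06 (SE 0.31, adjusted p 0.293), and the double mutant difference of 0.27 (SE 0.31, adjusted p 0.611) became -0.17 without G12D/E2-KO T3.

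Vwf stood at 7.25, 6.72 and 6.66 CPM in WT, at 4.11, 4.45 and 6.88 in E2-KO, at 2.69, 3.93 and 3.15 in G12D, and at 6.91, 8.08 and 10.8 in G12D/E2-KO. In G12D/E2-KO T1, 37 of the 154 Vwf UMIs lay in cells gated as promonocytes, which held 1 Pf4 UMI there. The G12D libraries were the lowest 3 of the 12. Its log2 difference in G12D was -1.05 (SE 0.21, edgeR adjusted p 0.124), and it passed without G12D T2 (log2 -1.24, adjusted p 0.0426). Selp (P-selectin, a granule membrane receptor for leukocytes) stood at 1.10 to 2.20 CPM in WT and 1.80, 1.72 and 10.0 CPM in G12D/E2-KO, with a log2 difference of 1.16 (SE 0.34, adjusted p 0.0656).

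Serpine2, an inhibitor of thrombin and plasminogen activators, was the member whose difference was the clearest. It stood at 14.8, 20.6 and 16.3 CPM in WT, at 23.8, 28.6 and 19.8 in E2-KO, at 14.9, 19.0 and 18.7 in G12D, and at 27.5, 41.6 and 72.7 in G12D/E2-KO. All 3 double mutant libraries lay above all WT and G12D libraries. Serpine2 rose in G12D/E2-KO by a log2 of 1.33 (SE 0.21, edgeR adjusted p 0.00715), with higher values at 3 of 3 time points, and leaving out WT T3 took the adjusted p to 0.0726 at a log2 of 1.23.

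Among the signalling members, all 9 were higher in the double mutant by size, with log2 differences from 0.04 to 2.40. Plek stood at 28.8, 22.2 and 23.6 CPM in WT, at 17.5, 15.0 and 22.9 in E2-KO, at 17.4, 14.5 and 23.4 in G12D, and at 27.9, 41.9 and 68.7 in G12D/E2-KO. The double mutant was just below WT at T1 and above it at T2 and T3. Plek rose by a log2 of 0.75 (SE 0.19, edgeR adjusted p 0.0457) and was close to the threshold: leaving out 1 library in turn gave adjusted p values from 0.0138 to 0.239, with 8 of the 12 libraries ending the call. Those 8 were all WT libraries, E2-KO T1 and T2, G12D T1 and G12D/E2-KO T2 and T3, and the values without them ran from 0.55 to 0.93 on the log2 scale.

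Receptors behaved unevenly. F2rl2 stood at 3.27, 3.26 and 3.94 CPM in WT and at 0.948, 2.09 and 1.74 CPM in E2-KO, without overlap (log2 -1.17, SE 0.28, edgeR adjusted p 0.0649), and in G12D at 1.42 to 1.84 CPM. P2rx1 stood at 3.79 to 4.23 CPM in WT and at 6.28, 6.57 and 5.31 CPM in G12D/E2-KO, above WT at each time point (log2 0.54, SE 0.18, adjusted p 0.0883). P2ry1 stood at 7.10 to 8.14 CPM in WT and at 9.43, 10.1 and 10.8 CPM in G12D/E2-KO, also without overlap (log2 0.34, SE 0.15, adjusted p 0.181). F2r, the thrombin receptor PAR1, stood at 8.12 to 9.86 CPM in WT and at 8.75, 10.4 and 25.2 CPM in G12D/E2-KO.

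In the last group, Sdpr stood at 6.34 to 7.99 CPM in WT, at 2.63 to 3.15 CPM in E2-KO and at 1.83 to 3.30 CPM in G12D, and at 2.51, 10.4 and 19.9 CPM in G12D/E2-KO. Rab27b, a small GTPase of granule release, stood at 7.02 to 7.10 CPM in WT, at 4.00 to 4.35 CPM in E2-KO and at 2.73 to 3.30 CPM in G12D, and at 4.08, 9.80 and 16.0 CPM in G12D/E2-KO. Neither gene overlapped between WT and a single mutant, yet neither passed in edgeR, with adjusted p values of 0.155 and 0.222 in E2-KO and 0.293 and 0.219 in G12D. Tubb1 was not tested, with 0 UMIs in 10 libraries and 0.0449 and 0.130 CPM in G12D/E2-KO T1 and T3.

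The levels of some members rested on very few cells. Ppbp stood at 40.5, 6.89 and 2.97 CPM in WT at T1, T2 and T3, at 2.21, 0.973 and 1.74 in E2-KO, at 1.32, 1.25 and 0.356 in G12D, and at 2.96, 61.3 and 63.0 in G12D/E2-KO. The libraries WT T1, G12D/E2-KO T2 and G12D/E2-KO T3 thus stood far above the other 9. In G12D/E2-KO T2 1 cell held 982 of the 1138 Ppbp UMIs (86.3%), in G12D/E2-KO T3 1 cell held 653 of 973 (67.1%), and in WT T1 1 cell held 278 of 682 (40.8%). Cells with at least 100 Ppbp UMIs numbered 3, 1 and 2 in WT T1, G12D/E2-KO T2 and G12D/E2-KO T3 and 0 in each of the other 9 libraries.

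The same cells carried other genes of late megakaryocytes. The G12D/E2-KO T2 cell held 333 UMIs of Thbs1 (thrombospondin 1, an alpha granule protein), 248 of Itgb3 (integrin beta 3), 63 of Clec1b, 43 of Alox12 (platelet 12-lipoxygenase), 20 of Gp6 and 0 of Tubb1, beside 386 of Pf4. The G12D/E2-KO T3 cell held 533 of Thbs1, 129 of Itgb3, 105 of Clec1b, 74 of Alox12, 16 of Gp6 and 2 of Tubb1, beside 616 of Pf4. The 32 members made up 12.8% and 13.8% of all UMIs of these cells. They had 24622 and 23745 UMIs, and the WT T1 cell 11692.

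The 3 highest cells of each gene held 83.3, 93.1 and 86.9% of the Ppbp UMIs in WT T1, G12D/E2-KO T2 and G12D/E2-KO T3, 84.9, 83.5 and 90.7% of the Thbs1 UMIs, and 85.2, 94.5 and 92.5% of the Alox12 UMIs. For Gp6 these shares were 81.3, 95.7 and 100%, and for Itgb3 52.4, 62.0 and 28.9%. The fitted differences of these genes had large errors: the double mutant log2 was 1.83 (SE 1.44) for Ppbp, 1.42 (SE 1.44) for Thbs1 and 2.40 (SE 1.31) for Alox12, and none passed. The Ppbp difference was 0.78 when G12D/E2-KO T3 was left out and 3.11 when G12D/E2-KO T1 was, where it passed (edgeR adjusted p 0.0333). It was 0.81 to 1.12 without WT T3 or T2, 0.98 without G12D/E2-KO T2 and 3.06 without WT T1, and 3.23 without both T1 libraries (adjusted p 0.0456). Levels of Ppbp, Thbs1, Alox12 and Gp6 in these libraries therefore rest mainly on 1 to 3 large cells rather than on a population. Ppbp was present in more cells than these. A UMI of it was found in 58 of the 219 Pf4 cells of G12D/E2-KO T3 and in 12 of the 47 of WT T1. Without the 10 cells of each library that held the most member UMIs, a setting chosen after the data were seen, Serpine2 (log2 1.56, edgeR adjusted p 0.00965) and Plek (log2 0.83, adjusted p 0.0200) passed over all cells. The same setting took the double mutant log2 of Ppbp from 1.83 to 0.62 and that of Pf4 from 0.27 to 0.62. It took the Pf4 difference in G12D from -1.06 to -1.82 (SE 0.77), and none of these passed. Leaving out 10 cells weighs more where Pf4 cells are few, as in G12D T1 with 29, than in G12D/E2-KO T3 with 219. Serpine2 and Plek are themselves among the members counted, and Pf4 cells held 34.8% and 46.7% of their WT UMIs. The values of Pf4, Serpine2 and Plek in this setting thus follow in part from how it was built and support nothing.

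**Figure D4:**
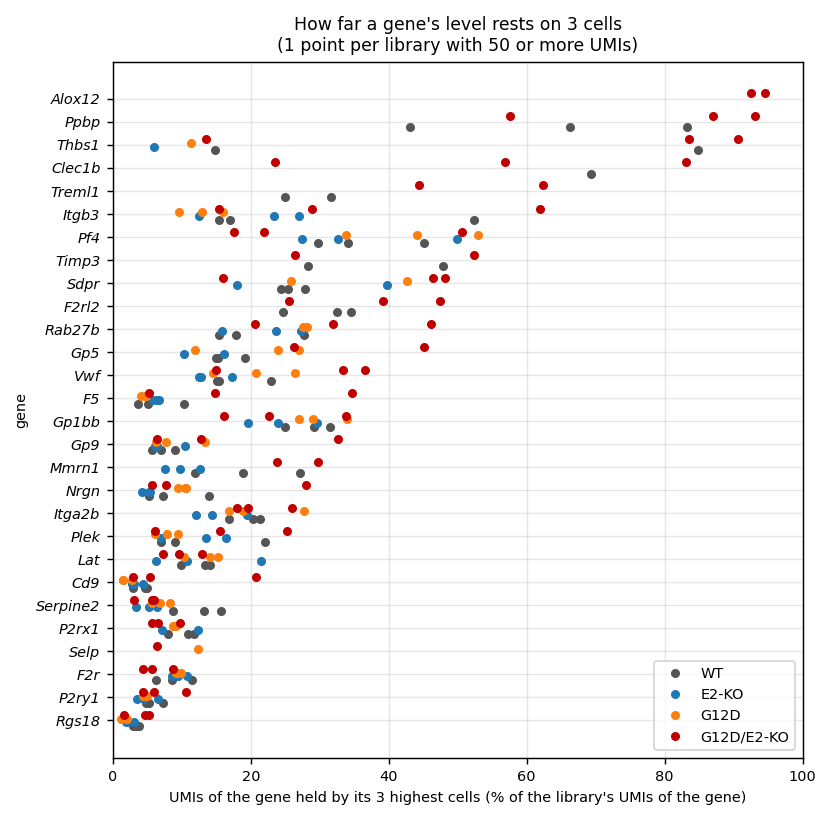
Percent of the UMIs of a member that its 3 highest cells held in a library, with 1 point per library in which the gene had at least 50 UMIs, coloured by genotype. Ppbp, Thbs1 and Alox12 lie between 83.3 and 94.5% in WT T1 (Ppbp and Thbs1), G12D/E2-KO T2 and G12D/E2-KO T3, whereas Rgs18 and P2ry1, spread over many cells, lie near the left edge.

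Within the cells with at least 2 Pf4 UMIs no member passed the test. Pf4, which chose these cells, was among the members tested and enters the counts and medians below. Its own difference there is no result. In this gate 28 members were tested among 5605 genes, of which 0.428% passed in E2-KO, 0.375% in G12D, 0.482% in G12D/E2-KO and 0.125% for the interaction. Members at an unadjusted p under 0.05 numbered 2, 2, 7 and 9 in the same order, where 6.46, 7.39, 8.53 and 5.96% of all genes were at that level. DESeq2 called 0, 0, 0 and 2 members, the last being Cd9 and Ppbp, where it called 0.323, 0.422, 0.333 and 0.212% of all genes. The median log2 differences of the members were -0.32, -0.21 and 0.53 in E2-KO, G12D and G12D/E2-KO, whereas those of all genes tested were 0.00, 0.01 and 0.01.

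Itga2b stood in the Pf4 cells at 261, 223 and 230 CPM in WT, at 144, 156 and 426 in E2-KO, at 195, 203 and 259 in G12D, and at 288, 321 and 434 in G12D/E2-KO. All double mutant values exceeded those of WT, but E2-KO T3 was nearly as high as the highest. Pf4 itself, which chose the cells, stood at 6604 to 8957 CPM in WT, 6860 to 10404 CPM in E2-KO, 8480 to 9766 CPM in G12D and 7557 to 12020 CPM in G12D/E2-KO. These levels were conditioned on the gate and are given as a description.

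Vwf stood at 163, 120 and 108 CPM in WT Pf4 cells, at 68.3, 88.3 and 182 in E2-KO, at 120, 87.5 and 96.6 in G12D, and at 207, 197 and 107 in G12D/E2-KO. Gp9 stood at 74.9, 95.2 and 71.4 CPM in WT, at 44.7, 73.1 and 27.6 in E2-KO, at 102, 87.5 and 85.0 in G12D, and at 105, 93.7 and 181 in G12D/E2-KO. The groups overlapped for both genes. Cd9 stood at 456, 494 and 535 CPM in WT Pf4 cells, at 362, 315 and 553 in E2-KO, at 328, 368 and 394 in G12D, and at 619, 747 and 717 in G12D/E2-KO. All double mutant values of Cd9 lay above the other 9 libraries here, unlike over all cells, without passing the test (log2 0.53, SE 0.18, edgeR adjusted p 0.305). Ppbp ran from 63.4 to 1297 CPM within WT alone and from 141 to 2037 CPM in G12D/E2-KO, and its high values were those of WT T1, G12D/E2-KO T2 and G12D/E2-KO T3, the libraries with the large cells described above.

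Serpine2 and Plek, which rose over all cells, showed no called difference within the Pf4 cells. Serpine2 stood there at 216, 160 and 169 CPM in WT, at 80.0, 177 and 171 in E2-KO, at 204, 193 and 182 in G12D, and at 236, 285 and 190 in G12D/E2-KO. Plek stood at 531, 275 and 266 CPM in WT, at 264, 295 and 558 in E2-KO, at 279, 329 and 236 in G12D, and at 397, 733 and 479 in G12D/E2-KO. F2r, named after its values were seen, was the member that came closest to a call in G12D: it stood at 103, 87.0 and 103 CPM in WT and at 204, 182 and 178 CPM in G12D Pf4 cells, without overlap, and it passed when E2-KO T3 or any G12D/E2-KO library was left out of the fit.

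The Pf4 cells were not pure in every library. Summed markers of late erythroid cells, mainly globins, ran from 375 CPM in G12D T3 to 39218 CPM in G12D/E2-KO T1 within the gate, and those of late granulocytes from 691 to 8551 CPM. The HSC/MPP markers summed to 921 CPM in the Pf4 cells of G12D/E2-KO T3 and to 327 to 492 CPM in those of the other 11 libraries. The part of these differences in the member levels was not tested.

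In the cells with fewer than 2 Pf4 UMIs, which made up 91.6% or more of every library, Serpine2 and Plek passed the test. Pf4, which set this gate, was among the members tested and enters the counts below. Its own difference there is no result. Of 25 members tested, 0 passed in E2-KO and in G12D, 2 in G12D/E2-KO and 0 for the interaction, where 1.95, 0.118, 6.16 and 0.0471% of the 12740 genes passed. The 2 of 25 in G12D/E2-KO are again near the share of all genes. Members at an unadjusted p under 0.05 numbered 5, 6, 12 and 9, against 16.3, 11.4, 26.7 and 3.08% of all genes. DESeq2 called 1, 1, 4 and 1 members, against 3.16, 0.857, 9.91 and 0.151% of all genes. The 4 in the double mutant were Serpine2, Plek, Itga2b and Gp1bb.

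Serpine2 in these cells stood at 9.04, 15.3 and 10.2 CPM in WT, at 22.5, 25.8 and 17.6 in E2-KO, at 12.7, 16.1 and 16.2 in G12D, and at 24.8, 34.3 and 61.4 in G12D/E2-KO. All libraries with the Ezh2 deletion lay above all those without it. The rise in G12D/E2-KO was 1.70 on the log2 scale (SE 0.23, edgeR adjusted p 0.00393), and it passed with each of the 12 libraries left out in turn, at log2 1.35 to 1.92. Plek stood at 14.5, 12.6 and 13.9 CPM in WT, at 11.8, 9.77 and 15.2 in E2-KO, at 14.4, 9.31 and 20.1 in G12D, and at 23.1, 21.0 and 29.3 in G12D/E2-KO, where every library lay above all others. Its rise was 0.77 (SE 0.17, adjusted p 0.0299), and the call ended without WT T1, WT T3, G12D T1, G12D/E2-KO T1 or G12D/E2-KO T2, at log2 0.64 to 0.77 and adjusted p of up to 0.181.

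Serpine2 was higher than in WT in granulocytic cells of both genotypes that lack Ezh2. Fits within single gates were added after the gates' values had been seen. The granulocyte-macrophage gate was chosen by Mpo, Elane, Ctsg, Prtn3, Ms4a3 and Plac8. In it Serpine2 stood at 27.6, 31.6 and 31.6 CPM in WT and at 56.7, 67.3 and 57.5 in E2-KO. It stood at 28.0, 47.8 and 30.7 in G12D, and at 45.7, 66.2 and 101 in G12D/E2-KO. Both deletion genotypes lay above WT without overlap. The rise in E2-KO was 1.05 on the log2 scale (SE 0.19, edgeR adjusted p 0.00436), and 1.24% of the 10143 genes passed. The G12D/E2-KO rise was 1.18 (SE 0.19, edgeR adjusted p 0.00083), and 2.85% passed. Serpine2 was the only one of 13 members tested there to pass. Without WT T2 the E2-KO adjusted p was 0.0781 at a log2 of 0.96.

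The late granulocyte gate was chosen by Ngp, Camp, Ltf and other late granulocyte genes. In it Serpine2 stood at 19.6, 25.6 and 20.0 CPM in WT and at 31.8, 44.0 and 37.2 in E2-KO. It stood at 18.1, 23.0 and 24.7 in G12D, and at 37.6, 42.8 and 88.9 in G12D/E2-KO. It rose in G12D/E2-KO by a log2 of 1.07 (SE 0.19, edgeR adjusted p 0.0018), as the only member of 12 tested, where 3.71% of the 8858 genes passed. The higher E2-KO values, which did not overlap with WT, did not pass. Granulocytic cells were not the only ones. In the B lymphoid gate, which was not fitted, Serpine2 stood at 2.53, 7.20 and 0 CPM in WT (3, 5 and 0 UMIs) and at 14.0, 22.4 and 19.1 CPM in E2-KO (19, 40 and 22 UMIs), without overlap. In G12D/E2-KO it stood there at 4.20, 12.6 and 0 CPM (1, 5 and 0 UMIs), and the T3 library held 1 cell of this gate.

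Late granulocyte markers, summed over all cells, also differed between libraries. They stood at 35586 to 41178 CPM in WT, 14728 to 18532 CPM in E2-KO and 41522 to 44892 CPM in G12D, and at 48785, 26375 and 15880 CPM in G12D/E2-KO. Their part in the Serpine2 level over all cells was not tested.

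Nrgn was higher in erythroid cells of both deletion genotypes; it falls outside the rule for named genes and is described because its values in these gates were seen. In the early erythroid gate, chosen by Car1, Klf1 and other early red cell genes, it stood at 16.8, 16.7 and 18.4 CPM in WT, at 40.4, 32.4 and 31.6 in E2-KO, at 6.20, 7.91 and 11.8 in G12D, and at 29.1, 27.9 and 58.5 in G12D/E2-KO. The 4 genotypes did not overlap, apart from E2-KO with G12D/E2-KO. The E2-KO rise was 1.06 on the log2 scale (SE 0.20, edgeR adjusted p 0.00519), and 2.24% of the 9675 genes passed. For G12D/E2-KO the log2 was 1.19 (SE 0.21, edgeR adjusted p 0.0031), and 3.14% passed. No other of the 11 members tested passed in either. The E2-KO call ended without WT T1, WT T3 or E2-KO T1 and the G12D/E2-KO call without WT T3, with adjusted p of up to 0.0888 and 0.0578.

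The late erythroid gate was chosen by globin genes, Alas2, Slc4a1 and Bpgm. In it Nrgn stood at 3.37, 4.71 and 6.97 CPM in WT (4, 12 and 10 UMIs) and at 21.3, 20.1 and 18.6 in E2-KO (43, 38 and 46 UMIs). It stood at 2.57, 0 and 0 in G12D (3, 0 and 0 UMIs) and at 14.5, 21.9 and 4.92 in G12D/E2-KO (25, 22 and 2 UMIs). For E2-KO the rise was 2.20 on the log2 scale (SE 0.37, edgeR adjusted p 0.000811), and 2.44% of the 6564 genes passed. For G12D/E2-KO it was 1.82 (SE 0.44, edgeR adjusted p 0.0170), and 5.53% passed. The gate had 7 tested members. The E2-KO call held with each library left out in turn, and the G12D/E2-KO call ended without WT T1 or G12D/E2-KO T2 and in DESeq2 (log2 1.77, adjusted p 0.0791). Over all cells Nrgn stood at 37.0 to 45.7 CPM in WT and at 31.5 to 40.1 CPM in E2-KO, which overlapped. It stood at 20.5 to 26.7 CPM in G12D, below all WT libraries, and at 29.7, 59.0 and 87.3 CPM in G12D/E2-KO, above WT at T2 and T3. In cells with fewer than 2 Pf4 UMIs it stood at 21.6 to 25.2 CPM in WT, 25.4 to 32.5 CPM in E2-KO, 14.9 to 18.5 CPM in G12D and 24.4 to 47.8 CPM in G12D/E2-KO. None of these differences passed in edgeR.

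**Figure D5:**
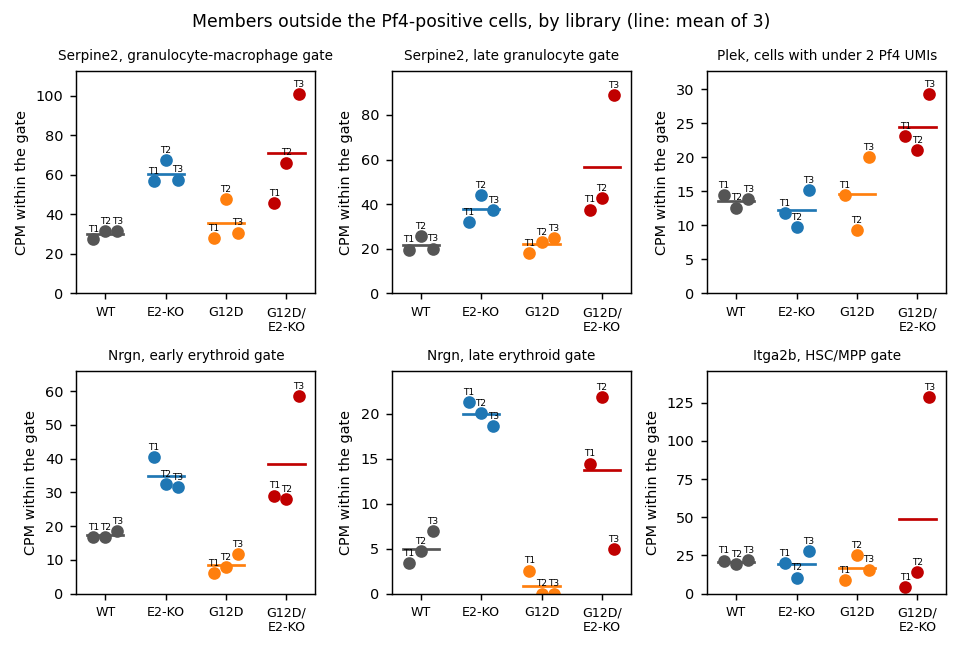
CPM of Serpine2, Plek, Nrgn and Itga2b in each library within gates that exclude cells with 2 or more Pf4 UMIs, with 1 point per library labelled by time point and a line at the mean of 3. Serpine2 in granulocytic gates and Nrgn in erythroid gates lie above all WT libraries in both genotypes that lack Ezh2, with the exception of the late erythroid Nrgn value of 4.92 CPM in G12D/E2-KO T3, and the high Itga2b mean of the double mutant rests on T3.

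In the HSC/MPP gate no member passed. Pf4, which the gate rule limits to 1 UMI per cell, was among the members tested there, so its own difference is no result. Of 9 members tested among 7730 genes, 0 passed in any contrast, where 0.22% of genes passed in E2-KO, 0.129% in G12D, 0.53% in G12D/E2-KO and 0.0129% for the interaction. Members at an unadjusted p under 0.05 numbered 1, 0, 1 and 2, against 9.34, 5.02, 11.6 and 3.27% of all genes. DESeq2 called 0 in each, where it called 0.462, 0.0576, 0.141 and 0.0256% of all genes. Itga2b stood there at 21.7, 19.2 and 22.2 CPM in WT, at 19.8, 10.5 and 27.9 in E2-KO, at 9.00, 25.2 and 15.7 in G12D, and at 4.18, 13.9 and 129 in G12D/E2-KO. The mean of the double mutant, 49.0 ± 69.3 CPM (SD, n = 3), rested on T3, since T1 and T2 were lower than every WT library.

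G12D/E2-KO T3 was also the highest of the 12 HSC/MPP values for Plek at 134 CPM, where the other 11 libraries ran from 48.1 to 97.6 CPM. Cells with at least 2 Itga2b but fewer than 2 Pf4 UMIs, a gate chosen after the values were seen, numbered 82 in G12D/E2-KO T3 (3.13%, exact 95% interval 2.50 to 3.87%). There were 4 to 19 of them in each of the other 11 libraries (0.145 to 0.544%). HSC/MPP markers summed over all cells to 323 CPM in G12D/E2-KO T3 and to 137 to 245 CPM elsewhere. T3 of the double mutant is 1 library, so these values have no replicate.

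Another 32 genes of platelet function, listed beside the members, were counted in the same fits. Over all cells 30 were tested: 0 passed in E2-KO and G12D, 2 in G12D/E2-KO, both higher, and 0 for the interaction, where 1.59, 0.109, 5.69 and 0.0934% of all genes passed. The 2 of 30 in G12D/E2-KO are near the share of all genes. They were Ptgs1 (cyclooxygenase 1; log2 0.84, SE 0.15, edgeR adjusted p 0.0133) and Zyx (zyxin, of focal adhesions; log2 0.60, SE 0.13, adjusted p 0.0308). The unadjusted p was under 0.05 for 7, 5, 13 and 14 of these genes, where 16.1, 11.8, 26.2 and 3.59% of all genes were at that level in either direction. DESeq2 called 0, 0, 5 and 2 of them, where it called 2.95, 1.04, 9.63 and 0.285% of all genes.

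Within Pf4 cells 25 of them were tested, and Gng11 (a G protein gamma subunit; log2 1.19, SE 0.22, edgeR adjusted p 0.00821) and Mrvi1 (a partner of cGMP-dependent kinase; log2 1.39, SE 0.30, adjusted p 0.0314) rose in G12D/E2-KO, where 0.482% of all genes passed. In cells with fewer than 2 Pf4 UMIs 2 of 26 passed in G12D/E2-KO, Ptgs1 and Mrvi1, a share near the 6.16% of all genes. In the HSC/MPP gate 0 of 18 passed, where 0.53% of all genes did. There 4 were at an unadjusted p under 0.05 (11.6% of all genes), and DESeq2 called 0. In the single gates the double mutant gave Vcl (vinculin) higher in granulocyte-macrophage cells, Cd63 (a tetraspanin) lower in late granulocytes and Rasgrp2 (the exchange factor for Rap1) higher in early erythroid cells, where 2.85, 3.71 and 3.14% of all genes passed. All 9 calls in these fits were in G12D/E2-KO, where the share of all genes called was also the highest.

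The counting could mix some members with neighbours. In the annotation, exonic bases are shared on the same strand by Gp1bb with Sept5, by Clec1b with Clec9a, and by Lat with a microRNA gene. Plek, Cd9, Thbs1, Timp3, F5, Selp and P2ry1 overlap genes on the other strand only. UMIs of Gp1bb and Clec1b are uncertain to that extent.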

How the data were processed

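RNA of single c-Kit+ marrow cells was measured with 10x Genomics 3' libraries. The authors deposited UMI counts per gene and cell, made with Cell Ranger on mm10 (per the labels), after removing cells with over 10% mitochondrial UMIs and Scrublet doublets, so no doublet caller was run here. The depth was 12.6 to 23.6 M UMIs per library. Cells that both T1 tables of G12D and G12D/E2-KO held (cosine similarity above 0.9) were counted once, in G12D/E2-KO.

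Gates asked for a minimum of UMIs summed over marker lists, set after the files were seen: 5 for HSC/MPP, 50 for granulocyte-macrophage, 200 for late granulocyte and late erythroid, 10 for early erythroid, B lymphoid and promonocyte cells, each with fewer than 2 Pf4 UMIs. The late granulocyte gate also left out other cells counted as late granulocytes above, and the part of this in the results was not tested. Pf4 was left in all these fits, so it was among the members tested wherever it passed the filter. Summed counts were tested with edgeR 4.0.16 (R 4.3.3; TMM, filterByExpr, robust glmQLFit, glmQLFTest) with genotype and time point, over all 12 libraries, and adjusted by Benjamini-Hochberg over all genes of a contrast. DESeq2 1.42.0 was an alternative. On simulated data the fit over all cells recovered 57 of 100 genes changed by a log2 of 1 and 99 of 100 changed by 2 in G12D/E2-KO. At a log2 of 1 the G12D/E2-KO fits recovered 38 of 100 in Pf4 cells, 71 in cells with fewer than 2 Pf4 UMIs and 41 in the HSC/MPP gate, and the interaction recovered 20 of 100 over all cells, 4 in Pf4 cells, 18 in cells with fewer than 2 and 5 in the HSC/MPP gate, so differences of that size could be missed there. At a log2 of 2 the interaction recovered 91, 62, 90 and 66. The simulation gave every gene the same spread between libraries and no time effect. Members carried by few cells had larger errors in the real fits, so these counts do not give the recovery of such members. The time point was the block because the labels give it as shared. Deviations of same-time libraries correlated at -0.27 to 0.50 over 18 pairs, above 0.1 in 11.

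Values in every library were given for Pf4, Ppbp, Vwf, Itga2b and Gp9 and for members past the threshold in a planned fit. The members, lists and gates were chosen with earlier results of these data known. Promoters came from RefSeq (GRCm38.p6). Nothing in the labels says that libraries of a genotype are replicate animals at 1 time. Shifts shared by all libraries of a time point were taken up by the block. The p-values of the fits thus rest on how genotype differences varied from 1 time point to another, which also holds mouse and library.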

Additional observations from a re-analysis of the deposited data

How the results depend on the processing

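Counts of members called by edgeR depended on the fit; percentages in parentheses are the share of all genes called under the same setting. Over all cells, E2-KO against WT gave 0 members, but 5 with DESeq2 (2.95%) and 9 when only the groups compared were fitted (5.04%). It gave 1 each with library totals only (2.09%), no filter on low counts (1.15%) and both T1 libraries with shared cells left out (1.55%). G12D gave 0, but 4 with DESeq2 (1.04%) and 1 with only the groups compared (0.197%). G12D/E2-KO gave 2, but 1 with library totals only (5.11%), only the groups compared (3.06%) or the tables as deposited (3.42%). It gave 5 without both T1 libraries (1.69%). The interaction gave 0, but 12 with DESeq2 (0.285%), 4 with no filter (0.11%), 1 with library totals only (0.125%) and 6 without both T1 libraries (0.108%). In Pf4 cells, G12D gave 0, but 1 with no filter (0.536%) and 2 with only the groups compared (1.58%). G12D/E2-KO there gave 1 without the 10 cells with the most member UMIs (0.597%). The interaction there gave 2 with DESeq2 (0.212%) or no filter (0.384%). It gave 1 with library totals only (0.178%), a gate of 5 Pf4 UMIs (0.162%) or the gate after thinning to 1400 UMIs (0.113%). In cells with fewer than 2 Pf4 UMIs, E2-KO gave 1 with DESeq2 (3.16%) and 4 with only the groups compared (5.23%). With DESeq2, G12D gave 1 (0.857%) and G12D/E2-KO 4 (9.91%) in these cells. The interaction there gave 1 with DESeq2 (0.151%) or no filter (0.0753%). Without the replicate block G12D/E2-KO gave 1 in place of 2 members over all cells (4.73%) and in cells with fewer than 2 Pf4 UMIs (5.35%). Serpine2 was kept in both, Plek was lost, and no other count of members changed. Where 1 or 2 members were called, the share of all genes ran from 0.0753% to 6.65%. The cause of these changes was not tested.

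Leaving out 1 library in turn gave 0 to 5 (E2-KO), 0 to 1 (G12D), 0 to 8 (G12D/E2-KO) and 0 to 12 (interaction) members over all cells, 0, 0 to 1, 0 to 4 and 0 to 2 in Pf4 cells, 0 to 2, 0, 1 to 4 and 0 to 1 in cells with fewer than 2 Pf4 UMIs, and 0 in the HSC/MPP gate. Where members were called, the share of all genes called was 1.11 to 3.5%, 0.123 to 1.03%, 0.794 to 10.5% and 0.0764 to 0.261% over all cells, 0.498 to 0.542% (G12D), 1.03 to 1.65% (G12D/E2-KO) and 0.132 to 0.624% (interaction) in Pf4 cells, and 2.81 to 3.78% (E2-KO), 0.692 to 10.9% (G12D/E2-KO) and 0.0617% (interaction) in cells with fewer than 2 Pf4 UMIs. The highest counts came without G12D/E2-KO T1 (8 and 12 over all cells, where 5.29% and 0.261% of all genes were called), without G12D/E2-KO T3 (5 in E2-KO over all cells, 3.5% of all genes, and 4 in G12D/E2-KO below 2 Pf4 UMIs, 10.9%) and without WT T1 (4 in Pf4 cells, 1.65%). Among the named members the reversals were those of Pf4 and Gp9 over all cells in G12D/E2-KO, which ran from a log2 of -0.17 to 0.64 and from -0.29 to 0.51, lowest without G12D/E2-KO T3 and highest without G12D/E2-KO T1. The mean log2 share of Pf4 cells ran from -0.29 to 0.52 for the Ezh2 effect, which reversed without G12D T3 or G12D/E2-KO T3, from -0.82 to -0.01 for G12D and from 0.60 to 2.78 for the interaction, with no exact permutation p below 0.125. In 6 other settings the log2 values ran from 0.08 to 0.30 for the Ezh2 effect and from -0.26 to -0.02 for G12D. For the interaction they ran from 1.47 to 2.14, and no p in these settings was under 0.05. With 29 to 219 Pf4 cells per library, members with few UMIs could not be resolved.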
